A study of Mus musculus with 8 samples.

Results

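The genes described here encode subunits of the mitochondrial respiratory chain and ATP synthase, with the factors that share their gene names and help to assemble them. They were chosen by name alone: every probe set matching a mouse symbol that starts with Nduf, Uqcr, Atp5 or Cox followed by a digit, the 4 succinate dehydrogenase genes Sdha to Sdhd, and Cyc1 and Cycs. The rule found 90 genes, read by 91 probe sets, among the 14351 genes that could be named on the arrays. They comprised 32 subunits of complex I, 4 of complex II, 8 of complex III, cytochrome c, 17 of complex IV, 14 of complex V, and 5 assembly factors of complex I and 9 of complex IV. A further 37 genes of these names, 17 protein-coding and 20 pseudogenes, had no matched probe set and were not analysed here, among them Ndufv2, Uqcrb, Cox7b, Cox7c and Atp5g2. Subunits encoded by mitochondrial DNA carry other names and were outside the rule.

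The study measured colon RNA of adult mice on Affymetrix expression arrays, in which sets of short DNA probes each read a transcript. There were 3 arrays of mice lacking the transcription factor STAT5b (STAT5b-/-; replicate 1 is labelled male, replicates 2 and 3 female), REF arrays of wild type genotype and labelled female, whose name the labels do not explain, and 3 arrays of wild type (WT) mice, labelled female. The 2 REF columns were identical to within 2.47e-07 of their value and were counted as 1 sample. How Stat5b was disrupted is not stated, nor is it stated that replicates are different animals; the p-values below therefore reflect the scatter among these arrays, part or all of which may be technical.

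Oxidative phosphorylation takes place in the inner mitochondrial membrane. Complexes I and II pass electrons from NADH and succinate to coenzyme Q, complex III passes them to cytochrome c, and complex IV passes them to oxygen. Complexes I, III and IV pump protons while doing so, and complex V, the ATP synthase, uses the returning protons to make ATP. In the colon, absorptive cells depend on this pathway to burn butyrate made by gut bacteria. Most subunits are encoded in the nucleus, and complex IV has several subunits with alternative isoforms for muscle, lung or testis.

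Each deposited value is a linear ratio to the WT mean of the same probe set, so levels of different genes cannot be set against each other, and a fold change below is between conditions for a single gene. Over all probe sets the median ratio of an array lay between 0.948 (REF) and 1.04 (WT replicate 2), and the SD of log2 ratios was 0.646 to 0.737 in STAT5b-/- arrays, 0.402 in REF and 0.289 to 0.363 in WT arrays. Stat5b itself read 1.16, 1.17 and 1.26 in STAT5b-/- arrays, 1.18 in REF and 1.08, 0.93 and 0.993 in WT arrays. It was therefore not lower in the arrays labelled STAT5b-/- (log2 difference 0.26 ± 0.12 SE, limma adjusted p = 0.175), and whether its probes lie inside the disrupted part is not given, so the label has no check here. Because whole colon was measured, fewer cells of a type and less RNA per cell cannot be told apart in any value that follows.

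Genes of the respiratory chain and ATP synthase tended to be higher in STAT5b-/- colon, mostly by less than 1 on the log2 scale; among the complexes, the called share was highest in complex I (53.1%) and lowest in complex V (21.4%), and no excess was tested by complex. The log2 difference, STAT5b-/- minus WT, was above 0 for 84 of 90 genes, with a median of 0.445, against 50.6% and a median of 0.007 over all 14351 genes. By limma, at an adjusted p under 0.05 over all genes, 37 of the 90 genes rose (41.1%), against a background of 13.3% of all genes, and 1 fell (1.11%), against a background of 8.42%. The 3 STAT5b-/- arrays all lay above the 3 WT arrays for 70 genes and all below them for 3; the backgrounds were 25.0% and 16.5%. The median ratio over the 90 genes was 1.29, 1.38 and 1.4 in the STAT5b-/- arrays, 1.15 in REF and 1.04, 1 and 0.961 in the WT arrays. Of the 38 called genes, 10 were called in each of the 6 fits that left out 1 array, among them Cox7a1, Cycs, Ndufa8, Uqcrfs1, Cyc1, Sdhb, Ndufb7, Cox6b1 and Cox4i1. The number of members higher was 19, 11 and 10 without STAT5b-/- replicate 1, 2 or 3, and 27, 38 and 17 without WT replicate 1, 2 or 3. In the same order, 8.22%, 7.34%, 7.79%, 10.7%, 15.3% and 9.62% of all genes were called higher. No excess over these shares was tested. The calls depended on the scale of the deposited values. When the arrays were forced to one distribution (quantile normalization), Cycs was the single member still called. The background was then 1.15% of all genes called higher, so 1 of 90 members was near it. Still, 83 of 90 log2 differences stayed above 0. Log2 ratios to the WT mean spread less in WT arrays (SD 0.289 to 0.363) than in STAT5b-/- arrays (0.646 to 0.737). Forcing an equal spread changes both by design, and how much of the loss of calls comes from that was not tested. Calls lost this way therefore cannot decide whether a difference is present.

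**Figure D1:**
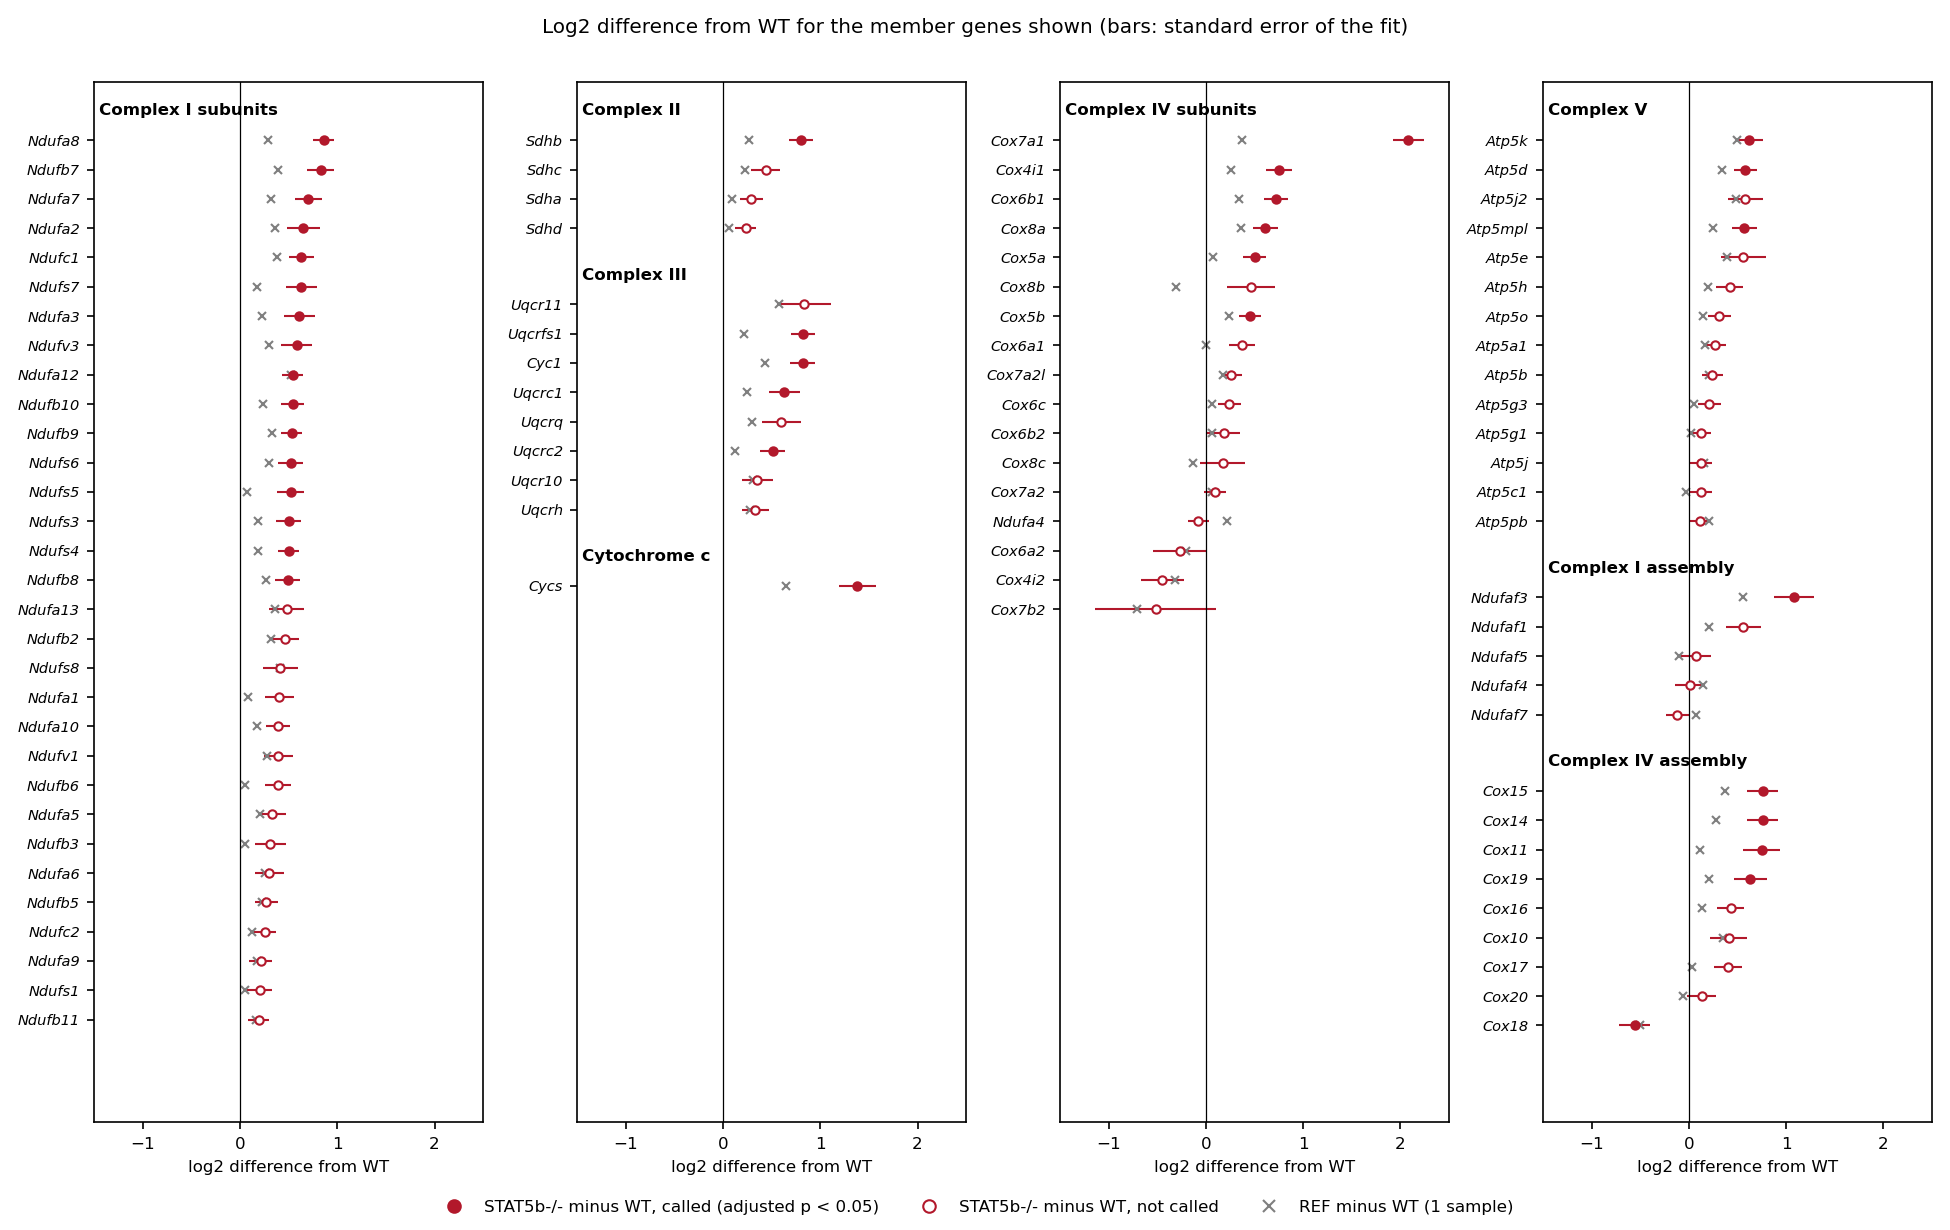
Log2 difference from WT (x axis) of the member genes shown, grouped by complex: circles are STAT5b-/- minus WT with the SE of the limma fit, filled where called, and crosses are REF minus WT. Nearly all circles lie above 0, Cox7a1 (2.08) and Cycs (1.38) stand farthest to the right, and Cox18 (-0.56) is the filled circle below 0.

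The windows around the start sites of 6 genes are shown because they belong to the genes the comparison turned on and to an isoform that was not called. Each runs from 250 bases before to 50 bases after the start site, 5′ to 3′, from RefSeq on GRCm38.p6, with matches to the searched letters in capitals. Cox7a1 and Cox7a2 are the isoform pair, Cycs and Ndufa8 had large differences, Sdhb was the called subunit of complex II, and Ndufc1 holds YY1 letters.
Cox7a1 (chr7:30183921-30184220, plus strand): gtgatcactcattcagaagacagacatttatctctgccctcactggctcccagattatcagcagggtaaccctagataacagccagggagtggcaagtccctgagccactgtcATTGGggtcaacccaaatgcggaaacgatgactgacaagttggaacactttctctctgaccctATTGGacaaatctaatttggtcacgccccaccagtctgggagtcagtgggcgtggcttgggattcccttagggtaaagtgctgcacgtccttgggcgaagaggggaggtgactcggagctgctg
Cox7a2 (chr9:79759804-79760103, minus strand): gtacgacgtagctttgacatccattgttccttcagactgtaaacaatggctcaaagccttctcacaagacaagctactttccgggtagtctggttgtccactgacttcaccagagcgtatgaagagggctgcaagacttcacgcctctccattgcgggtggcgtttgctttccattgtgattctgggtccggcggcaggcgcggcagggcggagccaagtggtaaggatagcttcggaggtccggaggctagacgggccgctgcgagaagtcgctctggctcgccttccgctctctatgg
Cycs (chr6:50566520-50566819, minus strand): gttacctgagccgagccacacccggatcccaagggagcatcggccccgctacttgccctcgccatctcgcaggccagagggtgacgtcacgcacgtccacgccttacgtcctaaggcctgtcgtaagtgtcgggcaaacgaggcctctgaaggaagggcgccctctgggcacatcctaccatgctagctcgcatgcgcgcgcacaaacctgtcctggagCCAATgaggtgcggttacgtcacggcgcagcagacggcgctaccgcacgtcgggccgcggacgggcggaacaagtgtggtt
Ndufa8 (chr2:36049289-36049588, minus strand): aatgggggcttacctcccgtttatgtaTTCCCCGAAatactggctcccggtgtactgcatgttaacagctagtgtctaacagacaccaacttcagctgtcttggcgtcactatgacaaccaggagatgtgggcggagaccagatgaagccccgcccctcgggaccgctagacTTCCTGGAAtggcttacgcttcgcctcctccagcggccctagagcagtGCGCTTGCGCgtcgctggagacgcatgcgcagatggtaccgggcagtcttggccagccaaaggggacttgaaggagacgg
Sdhb (chr4:140961021-140961320, plus strand): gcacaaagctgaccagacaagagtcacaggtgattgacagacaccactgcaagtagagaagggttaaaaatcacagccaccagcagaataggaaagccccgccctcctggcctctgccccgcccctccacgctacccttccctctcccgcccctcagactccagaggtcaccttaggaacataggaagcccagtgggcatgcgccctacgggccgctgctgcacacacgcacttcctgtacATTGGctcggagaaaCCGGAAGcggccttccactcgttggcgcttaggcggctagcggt
Ndufc1 (chr3:51408906-51409205, minus strand): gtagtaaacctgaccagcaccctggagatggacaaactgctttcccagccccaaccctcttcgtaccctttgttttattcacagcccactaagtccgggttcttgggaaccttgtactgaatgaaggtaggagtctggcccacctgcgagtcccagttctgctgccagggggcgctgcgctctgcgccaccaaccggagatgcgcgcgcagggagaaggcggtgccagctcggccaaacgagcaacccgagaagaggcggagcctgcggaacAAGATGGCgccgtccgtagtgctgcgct
The Cox7a1 window holds CCAAT letters on the opposite strand at -137 and -74, counted from the start site to the left end of the match, and the Cox7a2 window holds none of the 7 motifs searched. The Cycs window holds CCAAT at -31. In Ndufa8, the letters TTCNNNGAA, the palindrome that STAT proteins bind, stand at -223 and -78, and NRF1 letters (GCGCA and GCGC with any base between, opposite strand) at -30. Ndufc1 holds AAGATGGC, bound by YY1, at 23, and Sdhb holds CCGGAAG, bound by ETS factors such as GABP, at 7 and CCAAT on the opposite strand at -9. No matches shown overlap each other.

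The same search, on both strands, covered 79 promoter windows of 73 member genes, the other 17 having no window in the table. NRF1 letters were in 21.5% of member windows, against 7.51% of the windows of other tested genes. The ETS letters were in 27.8% against 13.4%, and the YY1 letters in 15.2% against 3.30%. TCAAGGTCA, bound by estrogen-related receptors, was in 2.53%, which is 2 of 79 windows, against 0.292%. TTCNNNGAA was in 7.59% of member windows, against 7.20% of the others, CCAAT in 41.8% against 37.6%, and TATAAA in 10.1% against 9.49%. Among the 32 windows of members that rose, the shares were 15.6% for NRF1, 25.0% for ETS, 18.8% for YY1, 0.00% for the estrogen-related receptor letters, 9.38% for TTCNNNGAA, 15.6% for TATAAA and 28.1% for CCAAT, the last being below its share among all members and other genes. A match describes letters in these windows and is not evidence of binding, and the shares were not tested.

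Among the subunits of complex I, the large L-shaped enzyme that oxidises NADH, 17 of 32 rose (53.1%) and none fell. Over all genes 13.3% rose and 8.42% fell. The median log2 difference of complex I was 0.495. The count was 8, 3 and 3 without STAT5b-/- replicate 1, 2 or 3, and 5 without WT replicate 3. In those fits 8.22%, 7.34%, 7.79% and 9.62% of all genes were called higher. Of the core subunits, which carry out the reaction, 3 of 6 rose (median 0.457), and of the accessory subunits, which surround them, 14 of 26 (median 0.495). Ndufa8, an accessory subunit on the side facing the intermembrane space, read 1.82, 1.8 and 1.82 in STAT5b-/- arrays, 1.22 in REF and 1.04, 0.979 and 0.976 in WT arrays. All 3 STAT5b-/- arrays were high, nearly equal, and apart from WT, with REF between (log2 difference 0.86 ± 0.11 SE, limma adjusted p = 0.00287). Ndufb7, an accessory subunit of the membrane arm, read 1.7, 1.86 and 1.74 in STAT5b-/- arrays, 1.31 in REF and 1.14, 0.875 and 0.987 in WT arrays (0.83 ± 0.14, limma adjusted p = 0.00756). Its WT arrays were more spread than its STAT5b-/- arrays and still lay below them.

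Other accessory subunits of complex I rose by less. Ndufa12, which sits near the junction of the arms, read 1.46, 1.42 and 1.49 in STAT5b-/- arrays, 1.43 in REF and 1.01, 1.01 and 0.985 in WT arrays, so REF lay inside the STAT5b-/- range (log2 difference 0.54 ± 0.11 SE, limma adjusted p = 0.014). With REF counted among the WT arrays its difference was 0.41 and its call ended (limma adjusted p = 0.0936). Ndufa7 read 1.52, 1.74 and 1.59 in STAT5b-/- arrays, 1.24 in REF and 1.15, 0.906 and 0.94 in WT arrays (0.70 ± 0.14, limma adjusted p = 0.0152). Ndufc1, a small subunit of the membrane arm, read 1.53, 1.53 and 1.56 in STAT5b-/- arrays, 1.3 in REF and 1.13, 0.96 and 0.907 in WT arrays (0.63 ± 0.13, adjusted p = 0.0157 by limma). Both sets of STAT5b-/- values stood above REF, and REF above each WT array. These 3 calls were kept in 4, 3 and 2 of the 6 fits that left out an array. The lowest log2 difference in complex I belonged to Ndufb11, another membrane arm subunit, with 1.21, 1.11 and 1.11 in STAT5b-/- arrays, 1.12 in REF and 1.04, 0.975 and 0.98 in WT arrays. Its groups did not overlap, yet it was not called (0.19 ± 0.11, limma adjusted p = 0.293).

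**Figure D2:**
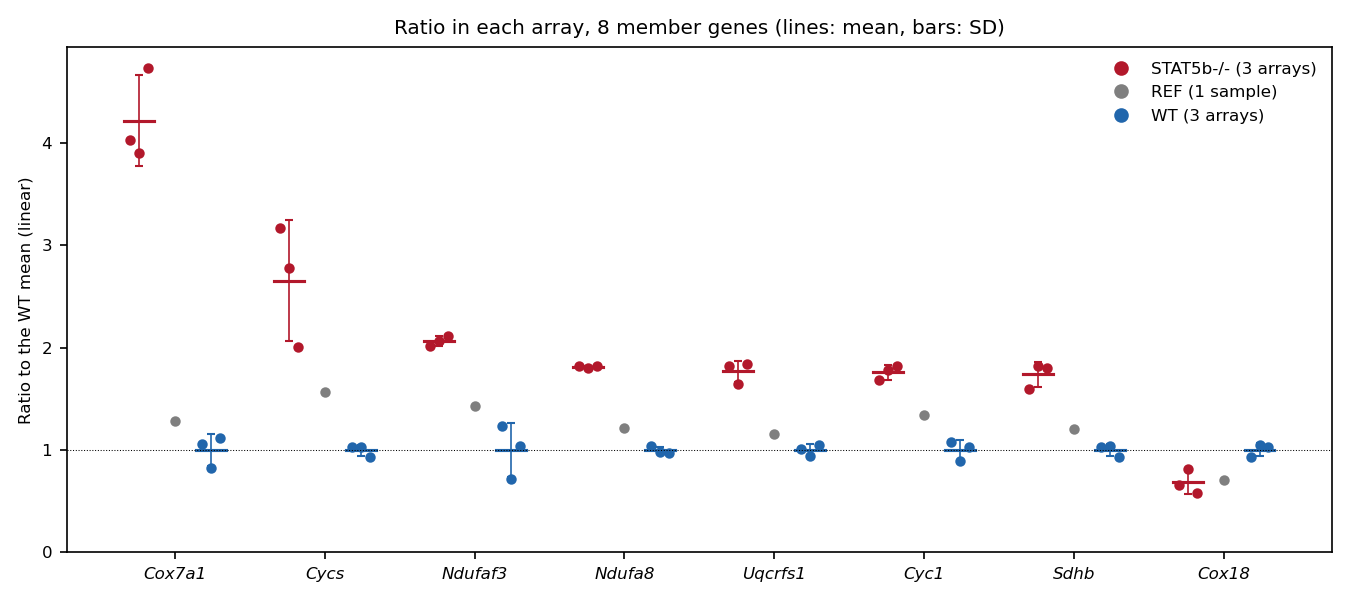
Deposited ratio to the WT mean (linear y axis) on each array for 8 genes, with STAT5b-/- arrays, the single REF sample and WT arrays from left to right, and lines and bars for mean and SD (n = 3). Cox7a1 reaches 4.73 and Cycs 3.17 in STAT5b-/- arrays, REF lies between the groups for 7 of the genes, and for Cox18 it lies within the STAT5b-/- range.

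Complex II, succinate dehydrogenase, links the citric acid cycle to the chain, and 1 of its 4 subunits rose (25%, against 13.3% of all genes). Sdhb, the iron-sulfur subunit, read 1.6, 1.82 and 1.8 in STAT5b-/- arrays, 1.21 in REF and 1.03, 1.04 and 0.933 in WT arrays. The STAT5b-/- arrays lay well above the others (log2 difference 0.80 ± 0.12 SE, limma adjusted p = 0.00554). The membrane anchor Sdhc read 1.53, 1.19 and 1.35 in STAT5b-/- arrays, 1.16 in REF and 1.09, 0.872 and 1.04 in WT arrays. Sdha, the flavoprotein that oxidises succinate, read 1.17, 1.24 and 1.26 in STAT5b-/- arrays, 1.06 in REF and 0.959, 1.07 and 0.973 in WT arrays. Sdhd, the other anchor, read 1.21, 1.15 and 1.15 in STAT5b-/- arrays, 1.04 in REF and 1, 0.997 and 1 in WT arrays. In each of these 3 the STAT5b-/- arrays were above all WT arrays, as they were for 25.0% of all genes. The log2 differences of 0.44 ± 0.15, 0.29 ± 0.12 and 0.23 ± 0.11 (SE) did not pass the test, with limma adjusted p of 0.0861, 0.124 and 0.195.

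Complex III had the highest median of the complexes, a log2 difference of 0.614, and 4 of its 8 genes rose (50%, against 13.3% of all genes). Uqcrfs1, the Rieske iron-sulfur protein, read 1.82, 1.65 and 1.84 in STAT5b-/- arrays, 1.16 in REF and 1.01, 0.939 and 1.05 in WT arrays (0.82 ± 0.12 SE, limma adjusted p = 0.00437). Cyc1, the cytochrome c1 that hands electrons to cytochrome c, read 1.68, 1.78 and 1.82 in STAT5b-/- arrays, 1.34 in REF and 1.08, 0.894 and 1.03 in WT arrays (0.82 ± 0.13, adjusted p = 0.00563 by limma). Both redox subunits were thus higher in every STAT5b-/- array than in REF or any WT array. Uqcrc1 and Uqcrc2, the large core proteins on the matrix side, also rose, by 0.63 ± 0.16 and 0.51 ± 0.13 (limma adjusted p = 0.0347 and 0.0311), and kept their calls in 2 and 1 of the 6 fits without an array. Uqcrh, the hinge protein, had the lowest log2 difference of the complex, with 1.31, 1.25 and 1.21 in STAT5b-/- arrays, 1.21 in REF and 1.08, 1.06 and 0.854 in WT arrays. Its STAT5b-/- arrays lay above WT but not all above REF (0.33 ± 0.14, adjusted p = 0.138 by limma). Uqcr11, a small subunit, had a log2 difference as large as the redox subunits (0.83 ± 0.28), but its WT values of 1.36, 0.631 and 1.01 were so spread that it was not called (limma adjusted p = 0.0772).

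Cycs, the somatic cytochrome c that carries electrons between complexes III and IV and takes part in apoptosis once released, read 3.17, 2.78 and 2.01 in STAT5b-/- arrays, 1.57 in REF and 1.03, 1.03 and 0.937 in WT arrays. The STAT5b-/- arrays were all high but unequal, replicate 3 being the lowest, and none overlapped REF or WT. The log2 difference was 1.38 ± 0.19 SE (limma adjusted p = 0.00349), and under quantile normalization it was 0.96 ± 0.17 (limma adjusted p = 0.0383).

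Complex IV, cytochrome c oxidase, was the most uneven: 6 of 17 genes rose (35.3%, against 13.3% of all genes). Its log2 differences ran from -0.52 to 2.08 around a median of 0.263. Of the 10 subunits made in most tissues, 5 rose (50%, median 0.411). Of the 7 isoforms with a limited tissue range, 1 rose (14.3%, median 0.171), a share near that of all genes. That 1 was Cox7a1, the isoform of subunit VIIa known from heart, skeletal muscle and brown fat, which had the largest difference of all 90 genes. It read 4.03, 3.9 and 4.73 in STAT5b-/- arrays, 1.28 in REF and 1.06, 0.823 and 1.12 in WT arrays. Each STAT5b-/- array was far above every other array (log2 difference 2.08 ± 0.16 SE, limma adjusted p = 0.000531), while under quantile normalization the difference was 1.36 ± 0.26 (limma adjusted p = 0.0518). Cox7a2, the isoform used in most other tissues, read 1.08, 1.02 and 1.1 in STAT5b-/- arrays, 1.05 in REF and 1, 1 and 0.996 in WT arrays. Its groups did not overlap, but it was not called (0.09 ± 0.11, limma adjusted p = 0.61).

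Within the VIIa pair, the log2 ratio of Cox7a1 minus that of Cox7a2 was 1.89, 1.94 and 2.1 in STAT5b-/- arrays, 0.29 in REF and 0.08, -0.29 and 0.17 in WT arrays. The difference of 1.99 had p = 0.1 in a two-sided exact permutation test, the smallest that 3 arrays against 3 allow, and 0.167 after adjustment over the 5 isoform pairs compared. Cox4i1, the common form of subunit IV, read 1.54, 1.74 and 1.75 in STAT5b-/- arrays, 1.2 in REF and 1.1, 0.908 and 0.987 in WT arrays, and rose (0.75 ± 0.13 SE, limma adjusted p = 0.00927). Its counterpart Cox4i2, the form known from lung, read 0.663, 0.722 and 0.738 in STAT5b-/- arrays, 0.777 in REF and 0.848, 1.37 and 0.783 in WT arrays. Here the STAT5b-/- arrays were below all others, but WT replicate 2 was far above the other WT arrays, and the gene was not called (-0.45 ± 0.22, limma adjusted p = 0.205). The log2 ratio of Cox4i1 minus that of Cox4i2 differed by 1.2 between the groups, again with the smallest exact permutation p of 0.1 (adjusted 0.167).

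**Figure D3:**
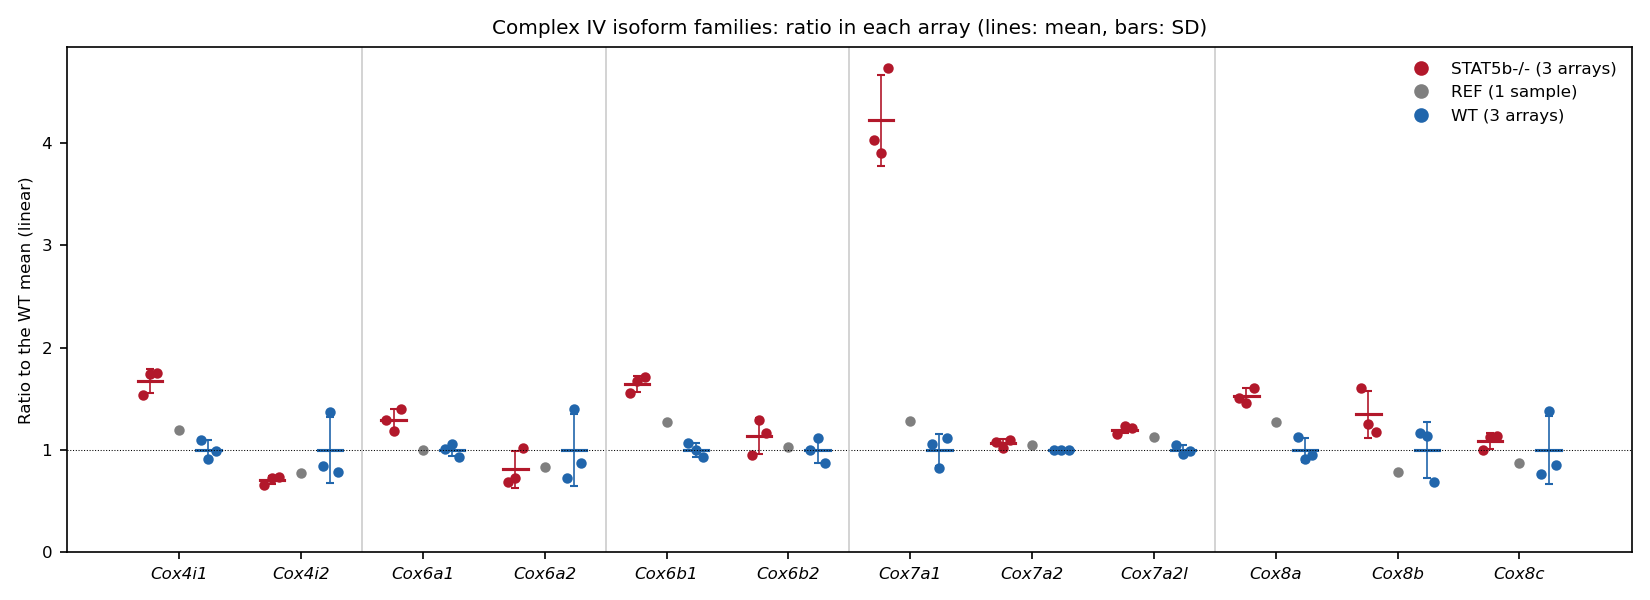
Deposited ratio to the WT mean (linear y axis) on each array for the isoform families of complex IV, with STAT5b-/- arrays, REF and WT arrays from left to right, and lines and bars for mean and SD (n = 3). Cox7a1 is high in all 3 STAT5b-/- arrays while Cox7a2 stays between 1.02 and 1.1 there, and STAT5b-/- arrays lie above WT for Cox4i1 and below WT for Cox4i2.

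The other isoform pairs were less clear. Cox6b1, the common form of subunit VIb, read 1.56, 1.67 and 1.71 in STAT5b-/- arrays, 1.27 in REF and 1.07, 0.999 and 0.931 in WT arrays, and rose (0.72 ± 0.12 SE, limma adjusted p = 0.00745). Its testis form Cox6b2, read by 2 probe sets that gave nearly the same values, overlapped between groups (0.18 ± 0.17, limma adjusted p = 0.499), and the difference within the pair was 0.53 (exact permutation p = 0.1, adjusted 0.167). Cox8a rose by 0.61 ± 0.13 (limma adjusted p = 0.0189), whereas Cox8b, a form known from heart and skeletal muscle, read 1.61, 1.25 and 1.18 in STAT5b-/- arrays, 0.783 in REF and 1.17, 1.14 and 0.683 in WT arrays and was not called (0.46 ± 0.25, limma adjusted p = 0.246). The Cox8 pair differed by 0.16 (exact permutation p = 0.8) and the Cox6a1 and Cox6a2 pair by 0.64 (exact permutation p = 0.2). Cox6a1, the common form of VIa, was not called (0.37 ± 0.13, limma adjusted p = 0.0793), nor were the muscle form Cox6a2 (-0.27 ± 0.28, limma adjusted p = 0.55) and the testis form Cox8c (0.17 ± 0.23, limma adjusted p = 0.659). Cox7b2, another testis form, had the lowest log2 difference of the complex (-0.52 ± 0.62, limma adjusted p = 0.603), which rested on the value of 2.16 in WT replicate 2, against 0.393 and 0.451 in the other WT arrays. Without that array the difference was 0.26 (limma adjusted p = 0.243). Cox7a2l, a related protein that joins complexes III and IV into supercomplexes, read 1.16, 1.23 and 1.21 in STAT5b-/- arrays, 1.13 in REF and 1.05, 0.96 and 0.993 in WT arrays (0.26 ± 0.11, limma adjusted p = 0.15). Ndufa4, a subunit named for complex I and now placed in complex IV, read 0.988, 0.931 and 0.919 in STAT5b-/- arrays, 1.16 in REF and 1, 1 and 0.994 in WT arrays. It was not called (-0.08 ± 0.11, limma adjusted p = 0.66), and its REF value was above every other array.

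Complex V, the ATP synthase, had 3 of 14 genes higher (21.4%, against 13.3% of all genes) and a median log2 difference of 0.29. With so few genes, that count does not set complex V apart from all genes. The log2 difference was above 0 for all 14, against 50.6% of all genes. The STAT5b-/- arrays lay above all WT arrays for 10 genes and below them for 0, against 25.0% and 16.5%. No excess in these shares was tested. The F1 head and its central parts, where ATP is made, had 1 of 5 genes called (median 0.266), and the membrane part with the peripheral stalk had 2 of 9 (median 0.314). Atp5d, the delta subunit of the central stalk, read 1.43, 1.57 and 1.49 in STAT5b-/- arrays, 1.26 in REF and 1.08, 1 and 0.915 in WT arrays (0.58 ± 0.12 SE, limma adjusted p = 0.0174). Atp5k, the small e subunit, read 1.49, 1.53 and 1.55 in STAT5b-/- arrays, 1.39 in REF and 1.16, 0.965 and 0.875 in WT arrays (0.62 ± 0.14, limma adjusted p = 0.0231). For both, the STAT5b-/- arrays were above REF and REF above each WT array. Atp5mpl, a small proteolipid of the membrane part, read 1.32, 1.56 and 1.59 in STAT5b-/- arrays, 1.18 in REF and 0.931, 1.07 and 0.997 in WT arrays (0.57 ± 0.13, limma adjusted p = 0.024). These 3 calls were kept in 3, 2 and 2 of the 6 fits without an array, and that of Atp5k ended with REF counted among the WT arrays (limma adjusted p = 0.0707). Complex V had 0 genes called under quantile normalization, without STAT5b-/- replicate 2 or 3, and without WT replicate 3. In those fits 1.15%, 7.34%, 7.79% and 9.62% of all genes were called higher, so 0 of 14 is near the background. Atp5j2, the f subunit, had a similar difference that was not called (0.58 ± 0.18, limma adjusted p = 0.0607). The catalytic subunits Atp5a1 and Atp5b had log2 differences of 0.27 ± 0.11 and 0.24 ± 0.11 (limma adjusted p = 0.137 and 0.194). The c subunit genes, whose products form the rotating ring, were close to WT: Atp5g3 had 1.24, 1.07 and 1.17 in STAT5b-/- arrays, 1.03 in REF and 1, 0.968 and 1.03 in WT arrays, and Atp5g1 had 1.1, 1.11 and 1.04 in STAT5b-/- arrays, 1.01 in REF and 0.989, 0.972 and 1.04 in WT arrays. Neither was called (limma adjusted p = 0.255 and 0.518). Atp5pb, the b subunit of the peripheral stalk, had the lowest difference of the complex (0.11 ± 0.11, limma adjusted p = 0.561), and its groups overlapped.

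**Figure D4:**
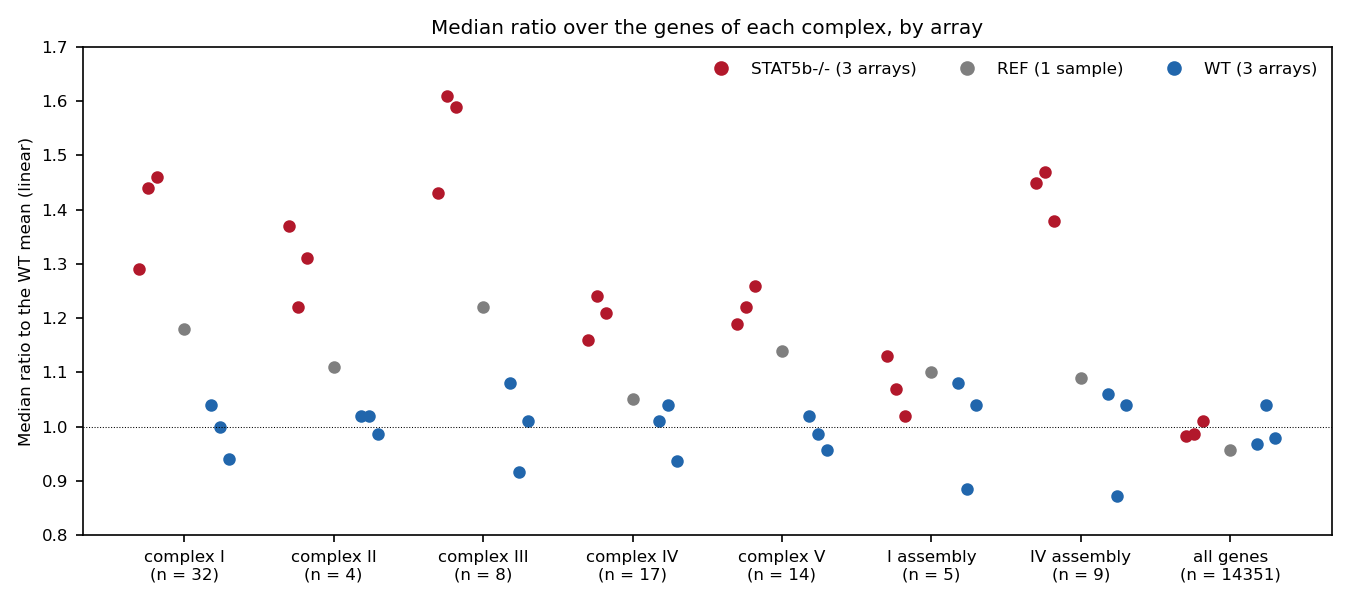
Median deposited ratio over the genes of each complex on each array, for STAT5b-/- arrays, REF and WT arrays from left to right. Medians of the STAT5b-/- arrays lie above those of WT for complexes I to V, most clearly for complex III, with REF between.

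Assembly factors of complex I and complex IV, which build the complexes without staying in them, gave a mixed picture. The share that rose was 20% of the complex I factors and 44.4% of the complex IV factors, against 13.3% of all genes. Of the complex IV factors 11.1% fell, against 8.42% of all genes. Of the 5 complex I factors 1 rose: Ndufaf3, which joins early subunits, read 2.02, 2.07 and 2.11 in STAT5b-/- arrays, 1.43 in REF and 1.24, 0.714 and 1.04 in WT arrays. The STAT5b-/- arrays were tightly grouped above a wide WT spread (log2 difference 1.08 ± 0.21 SE, limma adjusted p = 0.0127, kept in 4 of 6 fits without an array). Ndufaf1 had 1.43, 1.32 and 1.64 in STAT5b-/- arrays, 1.14 in REF and 1.15, 0.797 and 1.05 in WT arrays (0.56 ± 0.18, limma adjusted p = 0.0651). Ndufaf7, a methyltransferase of complex I assembly, had the lowest difference of these factors, and its groups overlapped (-0.12 ± 0.12, limma adjusted p = 0.571). Among the 9 complex IV factors 4 rose and 1 fell. Cox15, which makes heme A, read 1.79, 1.54 and 1.71 in STAT5b-/- arrays, 1.28 in REF and 0.981, 1.17 and 0.845 in WT arrays (0.76 ± 0.16, limma adjusted p = 0.0161). Cox14, needed for early steps with the Cox1 subunit, read 1.48, 1.75 and 1.82 in STAT5b-/- arrays, 1.2 in REF and 1.14, 1.01 and 0.85 in WT arrays (0.76 ± 0.16, limma adjusted p = 0.0169). Neither pair of groups overlapped. Cox18, an insertase that places part of the Cox2 subunit in the membrane, was the single member that fell. It read 0.66, 0.815 and 0.581 in STAT5b-/- arrays, 0.703 in REF and 0.929, 1.05 and 1.03 in WT arrays, so that REF lay within the STAT5b-/- range (-0.56 ± 0.16, limma adjusted p = 0.0475). That call was kept in 1 of the 6 fits without an array and was lost under other settings given in the closing section.

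REF, of wild type genotype, lay above WT for most of these genes, by less than STAT5b-/- arrays. Its log2 ratio was above the WT mean for 81 of 90 genes, against 42.8% of all genes, and above each of the 3 WT arrays for 65, against 20.1%. The median log2 difference, REF minus WT, was 0.209 over the 90 genes and -0.051 over all genes. With 1 REF sample the limma fit called 0 of the 90 genes, as it did over all genes (0.00%), and at an unadjusted p under 0.05 it found 1 member, Cycs, against 1.45% of all genes. Ranked by p within each direction, Cycs and Ndufa12 came first above WT (log2 differences 0.65 and 0.52). Cox18, Cox4i2 and Cox8b came first among the few members below WT (-0.51, -0.32 and -0.31). Such a rank is not evidence of a difference. By complex the median was 0.247 for complex I, 0.156 for complex II, 0.294 for complex III, 0.065 for complex IV and 0.194 for complex V. All 3 STAT5b-/- arrays nevertheless lay above REF for 63 of 90 genes (background 45.9%) and below it for 4 (background 24.2%). The STAT5b-/- and REF differences share the same 3 WT arrays, so they are not independent of each other.

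Many of the genes ranked the arrays of a group in a similar way. Among the STAT5b-/- arrays, replicate 3 was highest for 43 of 90 genes (47.8%, against 35.9% of all genes), and replicate 1, the one labelled male, was lowest for 49 (54.4%, against 39.8%). Among the WT arrays, replicate 1 was highest for 46 (51.1%, against 25.2%) and replicate 3 lowest for 49 (54.4%, against 28.9%). Sex and replicate cannot be told apart among the STAT5b-/- arrays. The fit without STAT5b-/- replicate 1 called 19 of 90 genes higher, against 8.22% of all genes, and none lower. Log2 differences stayed above 0 for 83 to 85 genes in each alternative fitted by gene.

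Genes of linked pathways differed in how many were called. Each count is to be read against the backgrounds of 13.3% of all genes higher and 8.42% lower, and under quantile normalization none of the calls in these lists was kept. Of 73 mitochondrial ribosomal protein genes, which build the ribosome that translates mitochondrial DNA, 20 rose and none fell (median 0.388), among them Mrpl12 (1.14 ± 0.12 SE, limma adjusted p = 0.00148). Of 22 further assembly factors 11 rose and none fell (median 0.507), among them Uqcc1, a factor of complex III (1.02 ± 0.14, limma adjusted p = 0.00341). Electron entry and coenzyme Q genes had 7 of 16 higher and 1 lower (median 0.414), among them Etfb, a subunit of the flavoprotein that brings electrons from fatty acid oxidation (log2 difference 1.00). Citric acid cycle genes with pyruvate dehydrogenase had 6 of 16 higher and 1 lower (median 0.273): Suclg2, a subunit of succinyl-CoA ligase, had a log2 difference of 1.01, and Pdha1, a subunit of pyruvate dehydrogenase, fell by 0.89 on the log2 scale. Glycolysis genes had 5 of 11 higher and 1 lower (median 0.337), with Pfkl, the liver form of phosphofructokinase, at 2.51. Of 8 genes that handle ATP or protons at the mitochondrial membranes, 2 rose and 1 fell (median 0.134). Ucp2, an uncoupling protein relative, had 1.16, Vdac2 had 0.48, and Ckmt1, a mitochondrial creatine kinase, fell by 1.12 on the log2 scale. Of 13 regulators of mitochondrial genes, 2 rose (15.4%) and 1 fell (7.69%), shares near those of all genes (median 0.194). Polrmt, the mitochondrial RNA polymerase, had a log2 difference of 0.90, and the coactivator Ppargc1b rose (0.59 ± 0.14, limma adjusted p = 0.0249). The related coactivator Ppargc1a, known for driving mitochondrial genes, fell (-0.68 ± 0.14, limma adjusted p = 0.0143). The receptor Esrra (0.54), and Nrf1 (0.32), Gabpa (0.19) and Tfam (0.17), which act on nuclear genes for the chain or on mitochondrial DNA, did not pass the test. With REF counted among the WT arrays, Esrra was called (0.50, limma adjusted p = 0.0384).

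**Figure D5:**
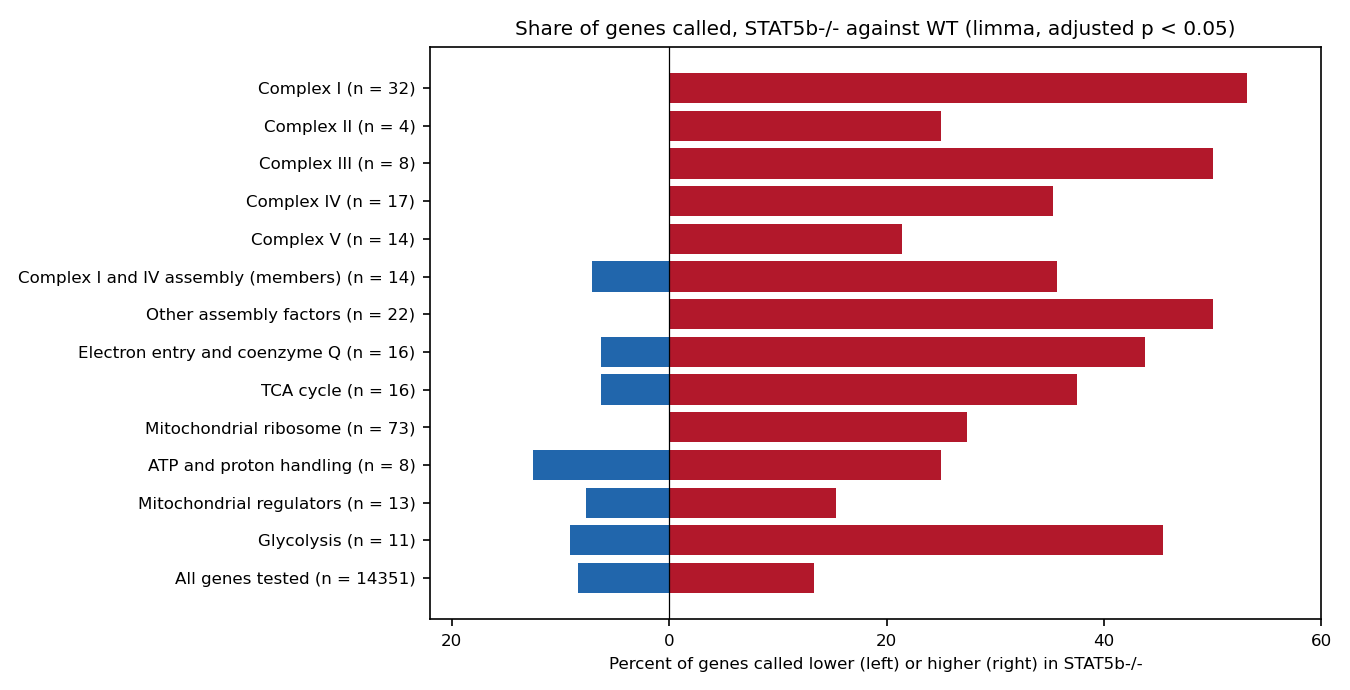
Percent of genes called higher (red, to the right) and lower (blue, to the left) in STAT5b-/- against WT by limma, for each complex, the assembly factors, the linked lists and all 14351 genes. All genes stand at 13.3% higher and 8.42% lower, complex I at 53.1% higher and the mitochondrial ribosome at 27.4% higher.

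Markers of the cell types in the colon wall moved with the same comparison. Markers of absorptive colonocytes, the cells that burn butyrate, rose for 8 of 11 genes and fell for none (13.3% and 8.42% of all genes), with a median ratio of 1.78 to 1.88 in STAT5b-/- arrays, 1.05 in REF and 0.979 to 1.02 in WT arrays. Goblet cell markers fell for 6 of 8, with a median ratio of 0.304 to 0.389 in STAT5b-/- arrays, 0.877 in REF and 0.964 to 1.05 in WT arrays. Fibroblast markers fell for 7 of 8, with a median ratio of 0.445 to 0.564 in STAT5b-/- arrays, 0.884 in REF and 0.887 to 1.07 in WT arrays. Leukocyte markers rose for 2 of 9 and fell for 4, and none of 10 smooth muscle markers was called. Under quantile normalization 1 colonocyte marker, Slc16a1, the butyrate and lactate carrier, was still called higher (limma adjusted p = 0.0389), and 5 goblet cell and 3 fibroblast markers were still called lower. The part of these cell types in the differences of the respiratory chain genes was not tested. Beside Cox7a1, known from muscle and brown fat, 1 of 10 striated muscle markers rose (Actc1, cardiac actin, 1.08; not called under quantile normalization), with a median ratio of 0.972 to 0.986 in STAT5b-/- arrays, 0.871 in REF and 0.845 to 1.26 in WT arrays. None of 7 brown adipocyte markers was called, with a median ratio of 0.65 to 0.778 in STAT5b-/- arrays, 0.641 in REF and 0.751 to 1.2 in WT arrays. Since the values are ratios, they do not show which markers are absent from the tissue.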

How the data were processed

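Colon RNA was measured on 8 Affymetrix arrays; the array type and genome build are not given in the sources used here. The authors deposited linear ratios, scaled so that the WT arrays of any probe set average 1 (largest departure 1.87e-07). Per the submitters' processing notes, which give no version, RMA was used; it corrects background, normalizes arrays and combines probes. The number of arrays limits the precision. Probe sets were matched by RefSeq accession to the gene table of GRCm38.p6: 15228 of 26180 matched 1 symbol and 10952 none, giving 14351 genes. Whether probes also bind transcripts of near-identical pseudogenes was not tested.

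The log2 of each ratio was taken, without a pseudocount, and averaged over the probe sets of a gene. The comparison of STAT5b-/- with WT used limma 3.58.1 in R 4.3.3 (lmFit, eBayes, two-sided) on these 6 arrays; p-values were adjusted by Benjamini-Hochberg across the 14351 genes and called at 0.05. REF, as 1 sample, was compared with WT likewise. The fit was tested on simulated data. The labels do not say that replicate numbers pair the arrays, and no pairing was used in the main fit. Log2 deviations of same-numbered arrays from their group means correlated at 0.036, -0.098 and -0.186 across genes. With 3 arrays in a group this cannot exclude a shared batch. Named members are the 6 with the smallest p in complex I, the 4 smallest in complexes III, IV and V each, all of complex II, Cycs, the 2 smallest among each kind of assembly factor, those called lower, the lowest difference in each complex, and isoforms with their partners; Uqcr11, Atp5a1 and Atp5b were added after their values were seen, and 1 eligible member of complex I is not reported here by name. Of each linked list up to 3 were eligible, and 5 regulators were named whatever their p. The members and lists were chosen with earlier results of these data known. Alternatives covered normalization, centring, probe set choice, a robust fit, floored values, REF among WT, the block and each array left out.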

Additional observations from a re-analysis of the deposited data

How the results depend on the processing

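Directions held more than calls. Across all alternatives fitted by gene the log2 difference was above 0 in 83 to 85 of 90 genes. Under quantile normalization 1 member was higher and 0 lower, with 0 called in complexes I, II, III, IV and V, and the median log2 difference was 0.329 over all members, 0.355 in complex I, 0.262 in complex II, 0.41 in complex III and 0.208 in complex V; over all genes 165 were called higher, against 1910. Leaving out 1 array gave 10 to 38 members higher and 0 to 1 lower, with 3 to 17 in complex I, 2 to 4 in complex III, 3 to 6 in complex IV and 0 to 4 in complex V, and a complex IV median of 0.203 to 0.417. The lowest counts came without STAT5b-/- replicate 3 (10), STAT5b-/- replicate 2 (11), WT replicate 3 (17) and STAT5b-/- replicate 1 (19). In those fits 7.79%, 7.34%, 9.62% and 8.22% of all genes were called higher. The 1 lower call, Cox18, became 0 under median centring, with REF added to WT and with every probe set tested on its own. With the replicate block, 11 members were higher and 0 lower, with 3 in complex I, 2 in complex III, 3 in complex IV and 0 in complex V. Over all genes 8.63% were then called higher. The labels do not say that the numbers pair the arrays. No array correlated best with its own number, which cannot exclude a pairing. Leaving out 1 array gave log2 differences of -0.967 to 0.261 for Cox7b2 and -0.471 to 0.000796 for Cox6a2, positive without WT replicate 2 and never called. Leaving out 1 array gave 9 to 22 of 73 mitochondrial ribosomal genes higher, 2 to 11 of 22 other assembly factors and 3 to 8 of 16 electron entry genes. It gave 2 to 5 of 16 citric acid cycle genes and 3 to 4 of 11 glycolysis genes. Over all genes, 7.34% to 15.3% were called higher in those fits. The highest probe set, a robust fit and leaving out floored values gave 37 higher and 1 lower. Quantile normalization alters the spread of WT and STAT5b-/- arrays by its design. The causes of the changes across settings were not tested.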
